A study of Mus musculus with 2 samples.

Results

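The 33 genes described here encode the proteins of blood coagulation and fibrinolysis: the clotting factors, the fibrinogen chains, the contact system, the natural anticoagulants, plasminogen with its activators and inhibitors, and a few cell-surface cofactors. They were chosen by symbol, and all 33 were found among the 32285 genes of a single-cell RNA sequencing matrix of mouse liver. Each gene was followed in hepatocyte-like cells of at least 5000 UMIs (unique molecular identifiers, each marking 1 captured mRNA molecule), in endothelial-like cells and in the other cell classes that marker genes could set apart. The levels are UMIs of a gene per 1000000 UMIs of a class (CPM). Because the 3′ chemistry counts 1 tag per molecule, these levels were not divided by transcript length.

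The study collected 2 samples, labelled Cebp KO and Cebp WT, each from liver of mice fed HFCFD, a high-fat, high-cholesterol and high-fructose diet (40% per the labels), for 2 weeks. Both groups were therefore on the diet, and chow-fed liver was not analysed here. CEBPA regulates transcription in hepatocytes, and in the study's knockout lines floxed Cebpa is removed by a Cre driven from the albumin promoter, on a C57BL/6N background. The labels do not say whether the constitutive or the tamoxifen-inducible Cre was used, or give the age of the mice or whether animals were pooled. Cells came from perfusion-digested liver, were cleaned by Percoll centrifugation and were loaded with 1 capture lane for each sample.

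The 2 samples share 1 matrix, in which the barcode suffix separates library 1 from library 2. No label ties a suffix to a genotype, so library 1 and library 2 are unassigned libraries, the values of both are given side by side, and none of the differences below is a knockout effect with a known direction. With 1 library of each kind there is no replicate check and no p-value, and the intervals in parentheses are exact 95% intervals that cover counting error only. Library 1 held 17313 barcodes and 60048646 UMIs, and library 2 held 15003 barcodes and 52355243 UMIs. The libraries stood apart in the median share of mitochondrial UMIs per barcode, 4.07% in library 1 and 41.3% in library 2, and 81 barcode sequences occurred in both. After the filters, 515 and 479 deep hepatocyte-like cells remained, with a median of 26147 and 12433 UMIs and 12905605 and 6907307 UMIs in all. Hepatocyte markers made up a median of 9.84% and 10.8% of their UMIs, and the genes that led them over the other kept cells were mitochondrial genes with Slc26a1, G6pc, Egfr and Lpin1. Cebpa itself was at 1.16 CPM (0.651 to 1.92) in the deep hepatocyte-like cells of library 1 and at 109 CPM (101 to 117) in those of library 2, and this value was not used to name a genotype.

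Coagulation is a cascade of serine proteases that circulate as inactive precursors, most of them made by hepatocytes. Tissue factor with factor VII, or the contact factors, start a chain that ends in thrombin, which turns soluble fibrinogen into fibrin, and factor XIII then cross-links the clot. Antithrombin, protein C and protein S hold the chain in check, and plasmin, made from plasminogen, dissolves fibrin again. Factor VIII and von Willebrand factor are known instead as products of endothelial cells.

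Several members are neighbours in the mouse genome (GRCm38, GENCODE M21). Fgg, Fga and Fgb lie within 42.1 kb on chromosome 3 (83007724 to 83049863), with no other protein-coding gene wholly between them. F7, F10 and Proz lie in a row within 49993 bases on chromosome 8 (13026034 to 13076026). F11 and Klkb1 lie side by side on the same chromosome (45241174 to 45294859), and Hrg, Kng2 and Kng1 on chromosome 16 (22951072 to 23082078). The sequences before the start of the fibrinogen genes are shown because these neighbours had the highest levels of the list, and those of F11 and Cpb2 because they had the highest ratios of library 2 to library 1. The sequences are from RefSeq (GRCm38.p6), in which 26 of the 33 members had one. Each runs 5′ to 3′ on the gene's strand and ends at the base before the annotated start. The Fga sequence ends earlier, since 77 bases lie inside the GENCODE gene. The positions are chr3:83025903-83026075 on the plus strand for Fga, chr3:83049864-83050113 on the minus strand for Fgb, chr3:83007474-83007723 on the plus strand for Fgg, chr8:45262032-45262281 on the minus strand for F11 and chr14:75242037-75242286 on the plus strand for Cpb2. Capitals mark a match on either strand to TTGCNNAA, a C/EBP-like motif.
Fga: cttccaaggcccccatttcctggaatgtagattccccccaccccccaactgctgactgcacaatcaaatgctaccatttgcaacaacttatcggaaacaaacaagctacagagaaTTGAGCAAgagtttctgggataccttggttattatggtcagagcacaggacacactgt
Fgb: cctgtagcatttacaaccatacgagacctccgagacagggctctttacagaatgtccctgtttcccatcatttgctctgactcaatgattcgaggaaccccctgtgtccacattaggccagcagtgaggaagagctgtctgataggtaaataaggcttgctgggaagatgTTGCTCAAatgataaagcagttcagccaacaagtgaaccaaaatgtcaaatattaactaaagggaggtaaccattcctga
Fgg: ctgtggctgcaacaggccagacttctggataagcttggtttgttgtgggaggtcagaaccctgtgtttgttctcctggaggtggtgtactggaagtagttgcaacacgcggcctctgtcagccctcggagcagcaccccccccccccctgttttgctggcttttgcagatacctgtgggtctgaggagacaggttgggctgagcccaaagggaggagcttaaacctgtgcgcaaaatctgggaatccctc
F11: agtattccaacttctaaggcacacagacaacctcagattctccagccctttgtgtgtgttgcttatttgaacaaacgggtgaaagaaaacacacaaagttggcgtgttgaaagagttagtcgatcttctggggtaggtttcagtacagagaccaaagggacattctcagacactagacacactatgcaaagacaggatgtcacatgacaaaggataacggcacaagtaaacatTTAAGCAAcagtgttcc
Cpb2: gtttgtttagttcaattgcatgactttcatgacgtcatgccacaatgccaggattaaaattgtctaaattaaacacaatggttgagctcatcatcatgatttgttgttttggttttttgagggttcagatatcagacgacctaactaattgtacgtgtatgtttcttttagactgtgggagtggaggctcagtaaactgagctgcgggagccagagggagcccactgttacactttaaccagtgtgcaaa

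The C/EBP-like letters were found in the 250 bases before the start of Fga, Fgb and F11, and not in those of Fgg or Cpb2. They occurred in 9 of the 28 promoter sequences of members (some genes have more than 1) and in 9.56% of all 32851 promoter windows of that length. The HNF1-like letters GTTAATNAT occurred in 3 member windows, those of F13b, Fga and Habp2, against 0.737% of all windows. The HNF4-like letters CAAAGTCCA occurred in 0 member windows and in 0.384% of all. A match is a description of letters, and binding was not measured here.

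Hepatocyte transcripts were also counted in cells that should lack them. T-like and B-like cells, which should make no albumin, held Alb at 23.9% of its hepatocyte-like level in library 1 and at 23.4% in library 2. The 23 members of at least 10 CPM in deep hepatocyte-like cells of both libraries were at a median of 24.3% (range 8.87 to 42.0) and 25.6% (range 12.9 to 35.3) of that level in T-like and B-like cells. Fgb, for example, had a UMI in 96.9% and 98.2% of T-like and B-like cells. Free RNA from broken cells can give such UMIs, but empty droplets were not measured and no doublet caller was run, and the source was not tested. A level in another class was therefore also given per 1000 Alb UMIs and set against the same quantity in T-like and B-like cells.

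Deep hepatocyte-like cells held most of the list at high levels. The 33 genes together made up 13816 CPM in library 1 and 15205 CPM in library 2, from 178305 and 105023 UMIs. At least 10 CPM was reached by 23 members in library 1 and 24 in library 2, with 23 in both (against 18.8% of all 32285 genes), and at least 100 CPM by 20 and 19 (against 3.48% of all genes in either library). Of the 30 members that could be placed in both libraries, 20 (66.7%) had their highest level in hepatocyte-like cells in both, against 10.2% of 14487 genes.

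The 3 fibrinogen chains carried 51.6% and 54.5% of the members' UMIs. Fgb, the beta chain, was at 2857 CPM (2828 to 2886) in library 1 and 3502 CPM (3458 to 3546) in library 2. Fgg, the gamma chain, was at 2131 CPM (2106 to 2156) and 2661 CPM (2622 to 2699). Fga, the alpha chain, was at 2145 CPM (2119 to 2170) and 2127 CPM (2093 to 2162), so that the beta chain led in both libraries and the order of the other chains was set by library 2 alone. Fgb had a UMI in every deep hepatocyte-like cell of both libraries.

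The chains also varied together from cell to cell. With each cell thinned to 5000 UMIs, Fgb and Fgg had the highest correlation among 171 pairs of members of at least 100 CPM, with Pearson's r of 0.512 over 515 cells and 0.527 over 479 cells. The pair Fga and Fgg gave 0.411 and 0.344, and Fga and Fgb gave 0.302 and 0.348. The median pair gave 0.0942 and 0.113. The neighbours F10 and Proz gave 0.0265 and -0.0221, and the neighbours Kng1 and Hrg 0.136 and 0.166. Few UMIs per cell can lower such a correlation, and the pairs differ in level. After thinning, Fgb had a mean of 13.4 and 17.3 UMIs per cell, F10 1.49 and 1.84, and Proz 1.12 and 0.772. Pairs of matched level were not compared, so the part of level in these differences was not tested. All these values are descriptions across cells that share a library, not replicates.

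**Figure D1:**
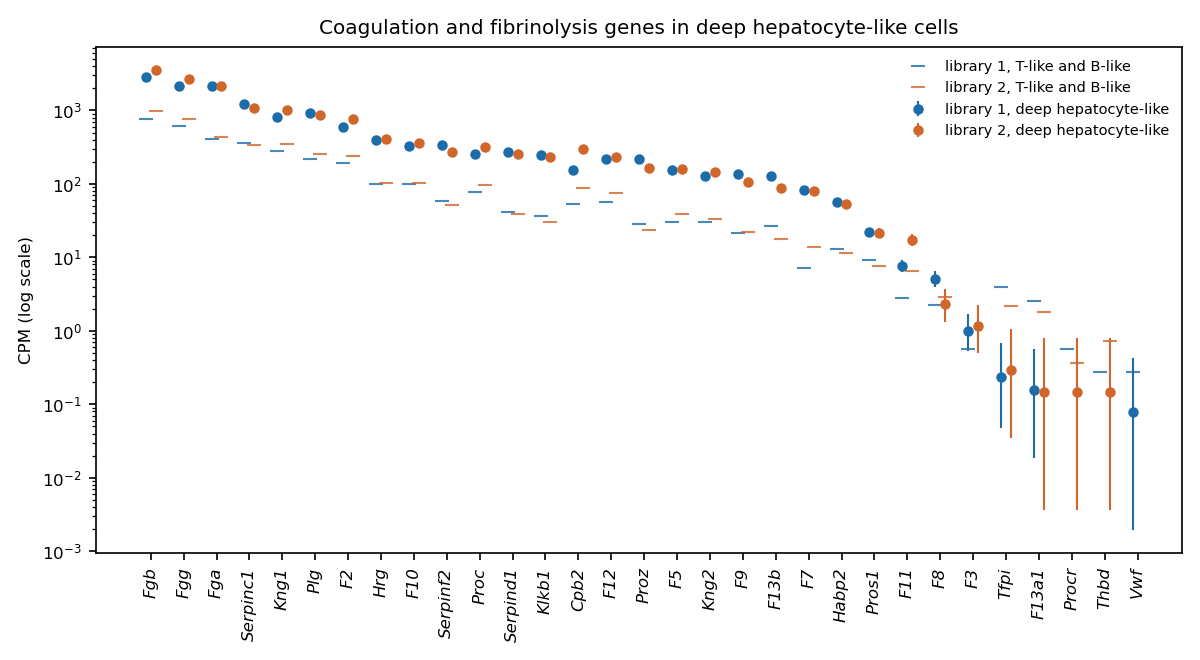
Level (CPM, log scale) of each member with a UMI in deep hepatocyte-like cells, as points for library 1 (blue) and library 2 (orange) with exact Poisson 95% intervals, and in T-like and B-like cells as dashes. The fibrinogen chains are highest in both libraries (2127 to 3502 CPM), the dashes lie below the points of the secreted factors, and the right-hand genes from F8 on have hepatocyte-like levels near or below the dashes; zero values are not drawn.

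Among the vitamin K-dependent proteases, F2 (prothrombin, the precursor of thrombin) was the highest of this group, at 600 CPM (586 to 613) and 761 CPM (741 to 782). F10, whose product activates prothrombin, was at 325 and 358 CPM. F9, the haemophilia B factor, was at 138 and 106 CPM, and F7, the partner of tissue factor, at 81.8 and 80.9 CPM. The levels of F2, F10, F9 and F7 thus spanned a wide range, with F2 the highest and F7 the lowest among them. Proc, the precursor of the anticoagulant protease protein C, was at 252 and 316 CPM. Proz, which encodes protein Z, a cofactor for inhibition of factor Xa, was at 220 and 162 CPM. Pros1, for protein S, the cofactor of activated protein C, was low at 21.9 and 21.4 CPM.

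F5, the cofactor of factor Xa, was at 155 and 161 CPM. In the contact system, Kng1, for kininogen, was at 805 CPM (789 to 820) and 1004 CPM (981 to 1028), Klkb1, for plasma prekallikrein, at 250 and 235 CPM, and F12 at 216 and 231 CPM. Kng2 was at 126 and 144 CPM, but of the 31-base stretches in the last 500 bases of its coding transcripts, 31.4% also occurred in Kng1 transcripts, and 18.3% of those of Kng1 in Kng2, so that the split of reads between both genes is uncertain. F11, the link from the contact system to factor IX, was the lowest of this group with 99 and 118 UMIs, or 7.67 CPM (6.23 to 9.34) and 17.1 CPM (14.1 to 20.5). F13b, the carrier subunit of factor XIII, was at 129 and 88.6 CPM, while F13a1, the catalytic subunit, had 2 and 1 UMIs in deep hepatocyte-like cells.

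The inhibitors and the fibrinolytic genes were led by Serpinc1 (antithrombin) at 1204 CPM (1185 to 1223) and 1076 CPM (1052 to 1101) and Plg (plasminogen) at 934 CPM (917 to 951) and 868 CPM (846 to 890). Serpinf2, for the plasmin inhibitor, was at 334 and 272 CPM, and Serpind1, for heparin cofactor II, at 275 and 253 CPM. Hrg, the histidine-rich glycoprotein that binds plasminogen and heparin, was at 393 and 404 CPM. Cpb2, whose product trims the plasminogen binding sites from fibrin, was at 154 and 298 CPM, and Habp2, a plasma serine protease, at 57.3 and 52.4 CPM. The plasminogen activators were not detectable at this depth in deep hepatocyte-like cells, since Plat and Plau each had 0 UMIs in both libraries, and 0 of 12905605 and of 6907307 UMIs allows a level of up to 0.232 and 0.434 CPM (3 UMIs).

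The remaining members were at or near the background in deep hepatocyte-like cells. F8 had 65 and 16 UMIs there, at 5.04 CPM (3.89 to 6.42) and 2.32 CPM (1.32 to 3.76), against 2.23 and 2.88 CPM in T-like and B-like cells. F3 (tissue factor) had 13 and 8 UMIs, Tfpi 3 and 2, Vwf 1 and 0, and Thbd and Procr 0 and 1 each. Their higher levels lay in other classes.

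Endothelial-like cells, 100 in library 1 and 96 in library 2, held 4 members at their highest level in both libraries (13.3% of the 30 placed, against 7.57% of all genes). F8, the haemophilia A factor and cofactor of factor IXa, was at 998 CPM (922 to 1079) and 914 CPM (833 to 1001), and 99.0% (94.6 to 100) and 95.8% (89.7 to 98.9) of these cells had an F8 UMI. In T-like and B-like cells that share was 0.894% and 1.41%. Tfpi, the inhibitor of tissue factor, was at 286 CPM (246 to 331) and 268 CPM (225 to 316). Pros1 was at 225 CPM (190 to 265) and 221 CPM (182 to 265), against 21.9 and 21.4 CPM in deep hepatocyte-like cells. Thbd, for thrombomodulin, the receptor that turns thrombin towards protein C, was at 86.1 CPM (64.8 to 112) and 91.8 CPM (67.4 to 122). For all 4 the intervals of both libraries overlapped. Pros1 was not separable from stellate-like cells in library 2, at 178 CPM (65.5 to 388) from 6 UMIs.

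Per Alb UMI, those same 4 of 27 members tested reached at least 2 times the T-like and B-like value in endothelial-like cells of both libraries, with counting intervals above 1, against 16.5% of all genes. F8 was at 116 and 92.2 UMIs per 1000 Alb UMIs in endothelial-like cells, against 0.239 and 0.294. Vwf, the carrier of factor VIII and a textbook endothelial product, was sparse in them: it had 1 UMI in library 1 and 18 UMIs in library 2, where 7 cells held the UMIs and 1 cell held 7 of them. Vwf came to 1.56 CPM (0.0396 to 8.72) and 35.2 CPM (20.8 to 55.6), and to 21.5 CPM in library 2 without that cell. In conventional dendritic-like cells it had 4 UMIs in each library, at 11 CPM in library 1 and 10.6 CPM (2.90 to 27.2) in library 2. Subtypes of endothelial cells were not separated. The marker list of this class held Stab2 and Clec4g, and Stab2 was at 2521 and 1789 CPM in endothelial-like cells. Plat, for tissue-type plasminogen activator, had 1 and 2 UMIs in endothelial-like cells and could not be placed in any class. Plau, for urokinase, had 5 and 2 UMIs there, and 15 and 2 in Kupffer-like cells.

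Kupffer-like cells, the resident macrophages of the liver (252 and 398 cells), reached at least 2 times the T-like and B-like value per Alb UMI in both libraries, with counting intervals above 1, for 4 of 28 members, against 19.8% of all genes. Pros1 was at 72.4 CPM (62.3 to 83.7) and 67.0 CPM (58.0 to 76.9), between its hepatocyte-like and endothelial-like levels. Tfpi was at 20.9 and 21.1 CPM, and Thbd at 11.8 and 10.7 CPM. Procr, the endothelial protein C receptor, had its highest level in this class, at 16.1 CPM (11.6 to 21.9) and 22.8 CPM (17.7 to 28.9), with a UMI in 12.3% and 10.6% of cells. In library 1 this was not separable from conventional dendritic-like cells at 13.8 CPM (5 UMIs). In library 2, stellate-like cells had 2 Procr UMIs, under the 5 needed for a highest class. These came to 4.73 per 1000 Alb UMIs, against 2.58 in Kupffer-like cells. Procr was at only 4.69 and 3.91 CPM in endothelial-like cells (3 and 2 UMIs).

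Monocyte-like cells (41 and 42 cells) reached this mark for 2 of 25 members, against 9.08% of all genes. F13a1 was at 527 CPM (443 to 622) and 566 CPM (477 to 666), with a UMI in 63.4% and 57.1% of cells, against 2.51 and 1.80 CPM in T-like and B-like cells. Factor XIII was thus split between cell classes, the carrier subunit gene F13b in hepatocyte-like and the catalytic subunit gene F13a1 in monocyte-like cells. F10 was at 184 CPM (136 to 244) and 255 CPM (197 to 326) in monocyte-like cells, below deep hepatocyte-like cells, and at 21.6 and 28.0 UMIs per 1000 Alb UMIs against 10.6 and 10.5. Thbd had too few UMIs for this reading (5 and 6), at 18.8 CPM (6.11 to 43.9) and 23.6 CPM (8.65 to 51.3) in monocyte-like cells, its second-highest class.

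Cholangiocyte-like cells, the cells of bile ducts (32 and 17 cells), reached it for 3 of 25 members, against 11.1% of all genes. Habp2 had its highest level there, at 86.8 CPM (59.4 to 122) and 140 CPM (86.8 to 214), and in library 1 its interval overlapped that of the next class, hepatocyte-like (53.3 to 61.6). Proc was at 228 CPM (182 to 282) and 274 CPM (196 to 371), not separable from deep hepatocyte-like cells, and at 21.7 and 30.9 UMIs per 1000 Alb UMIs against 8.20 and 9.88 in T-like and B-like cells. Pros1 was at 35.3 and 46.7 CPM. F3 was also highest in this class, with only 9 and 8 UMIs (24.4 and 53.4 CPM) spread over 7 and 6 cells, and its level in deep hepatocyte-like cells was 1.01 and 1.16 CPM.

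Stellate-like cells were few, 13 and 11, and 1 of 24 members passed in them, against 4.19% of all genes. Cpb2 was at 205 CPM (93.6 to 389) and 387 CPM (206 to 661) from 9 and 13 UMIs, with intervals that held the deep hepatocyte-like levels of 154 and 298 CPM. F12 was highest in the 12 neutrophil-like cells of library 2, at 261 CPM (120 to 496) from 9 UMIs, which was within counting error of the hepatocyte-like 231 CPM, and at 89.2 CPM in the 69 of library 1. No cell passed the gate for megakaryocytes or platelets.

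**Figure D2:**
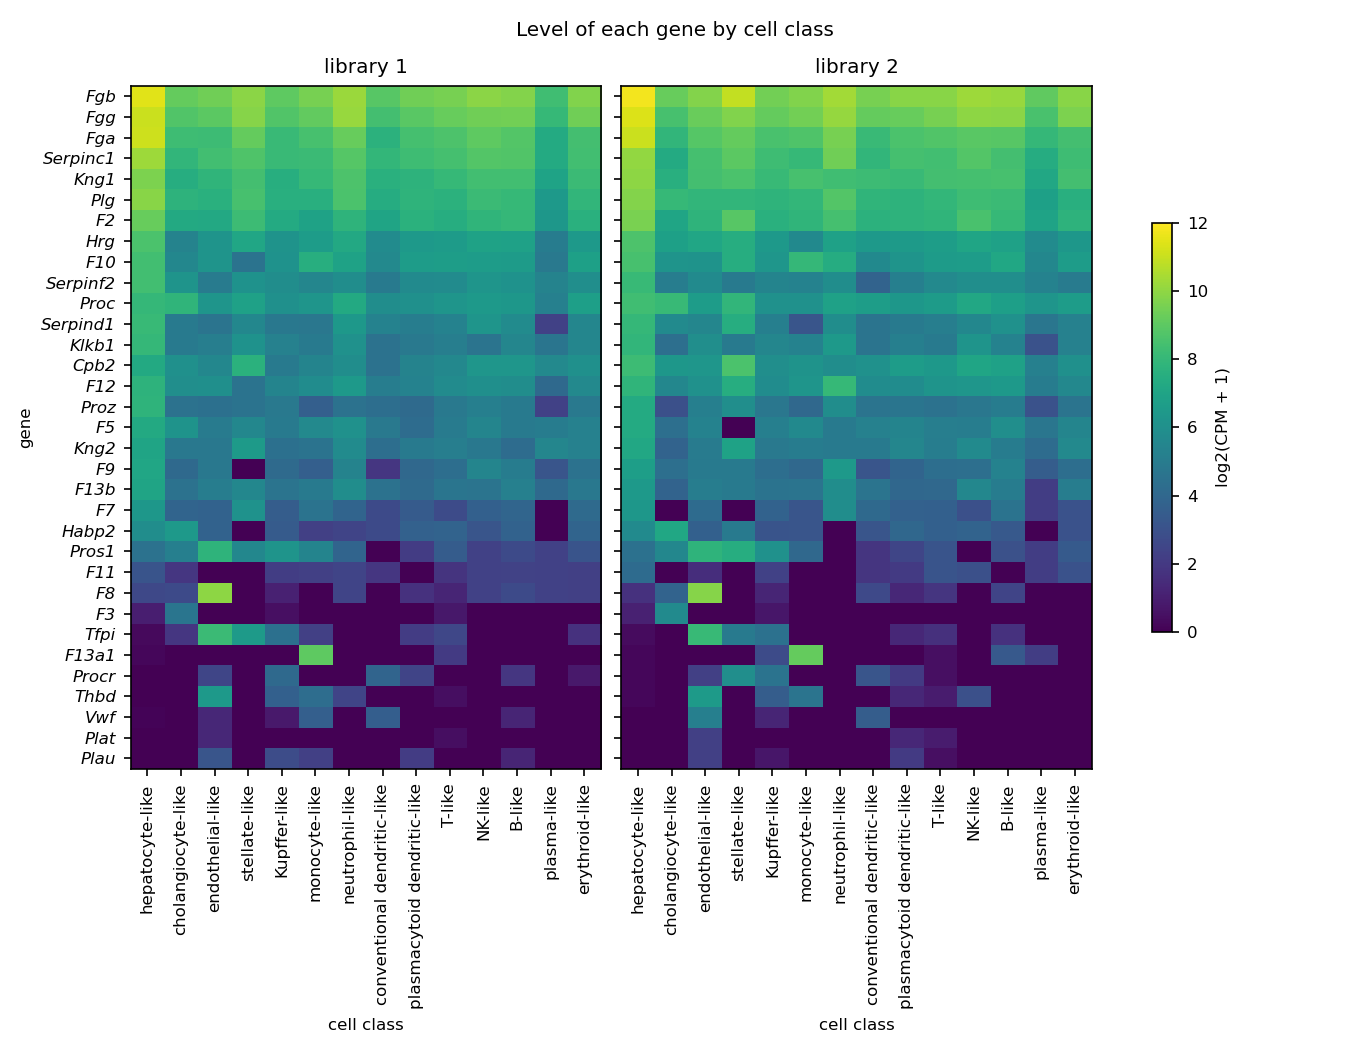
Level of all 33 members, as log2(CPM + 1), in 14 cell classes (columns) of library 1 and library 2 (panels). The 20 members highest in hepatocyte-like cells of both libraries are brightest in the first column over a fainter band in other classes, while F8, Tfpi, Pros1 and Thbd are brightest in endothelial-like, F13a1 in monocyte-like and F3 in cholangiocyte-like cells.

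**Figure D3:**
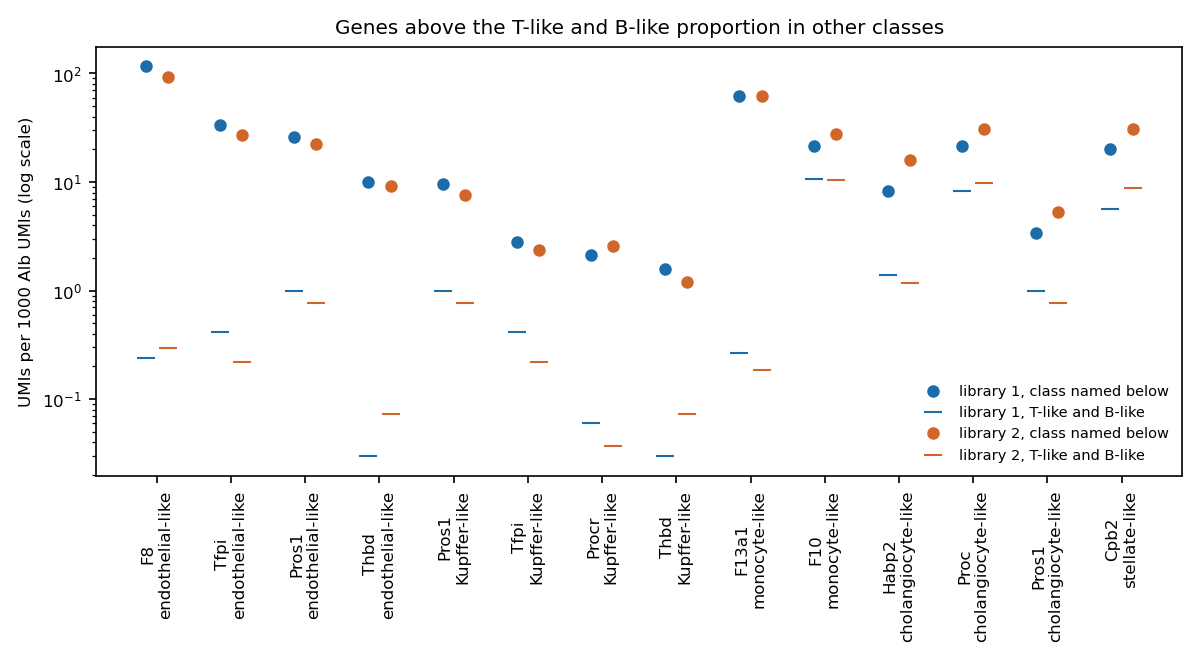
UMIs per 1000 Alb UMIs (log scale) of each member that reached at least 2 times the T-like and B-like value in both libraries, in the class named under the axis (points) and in T-like and B-like cells (dashes). The points of F8 in endothelial-like cells lie at 116 and 92.2 over dashes at 0.239 and 0.294, and those of F10 in monocyte-like cells at 21.6 and 28.0 over 10.6 and 10.5.

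Between the libraries, 26 members with at least 20 UMIs in both together were compared in deep hepatocyte-like cells. Of these 26, 13 were higher in each library and 18 were within 1.25-fold, against 57.8% of all genes tested. Of the 22 members of at least 50 CPM, 16 were within it, against 65.6% of the genes at such levels. The median log2 ratio of library 2 to library 1 was 0.02 for the members and -0.04 over 11037 genes, for which the 5th and 95th percentiles were -0.95 and 0.82. A 2-fold difference was passed by 1 member with the higher level in library 2 (F11, against 3.57% of 11053 genes) and by 1 with the higher level in library 1 (F8, against 4.76%). Of the 22 members of at least 50 CPM, 0 passed 2-fold, against 97 of 2132 genes (4.55%) at such levels. The median depth per cell and the share of droplets lost to the mitochondrial limit also differed between the libraries. Over the alternatives run, the ratio of F11 ran from 2.12 to 2.98, and that of F8 from 0.361 to 1.18 over 9 of them. With the T-like and B-like level subtracted, the ratio of F8 was 0, since its library 2 level (2.32 CPM) lay below that background (2.88 CPM). The ratio of F8 was inside 2-fold from 10000 UMIs (0.530), from 2000 UMIs (0.657), with classes from clustering (0.938) and with cells of any marker list left in (1.18).

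F11 was higher in library 2 by a ratio of 2.23 (1.69 to 2.94), from 99 and 118 UMIs. It was at 2.79 and 6.48 CPM in T-like and B-like cells, so the background moved the same way. Cpb2 followed, with a ratio of 1.93 (1.82 to 2.06), and it too was higher in T-like and B-like cells of library 2, at 87.2 CPM against 53.3. F2, Proc, Fgg and Kng1 were higher in library 2 by 1.27 (1.23 to 1.31), 1.26 (1.19 to 1.33), 1.25 (1.23 to 1.27) and 1.25 (1.21 to 1.29), and Fgb by 1.23 (1.21 to 1.25). Fga did not follow the other fibrinogen chains, with a ratio of 0.992 (0.972 to 1.01).

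Lower in library 2 were F13b, with a ratio of 0.686 (0.624 to 0.753), Proz with 0.738 (0.688 to 0.791), F9 with 0.772 (0.707 to 0.842), Serpinf2 with 0.815 (0.772 to 0.861) and Serpinc1 with 0.894 (0.870 to 0.919). The ratio of F8 was 0.460 (0.248 to 0.804), from 65 and 16 UMIs near the background, and it turned to 1.18 when hepatocyte-like cells that also held another class's markers were left in. In all, the counting interval lay above 1 for 10 members (against 16.8% of all genes tested) and below 1 for 9 (against 19.5%). Well-counted genes pass more easily, and of the 22 members of at least 50 CPM 9 lay above 1 and 8 below, against 37.7% and 32.9% of the 2132 genes at such levels, but with 1 library each the spread between animals is unknown.

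**Figure D4:**
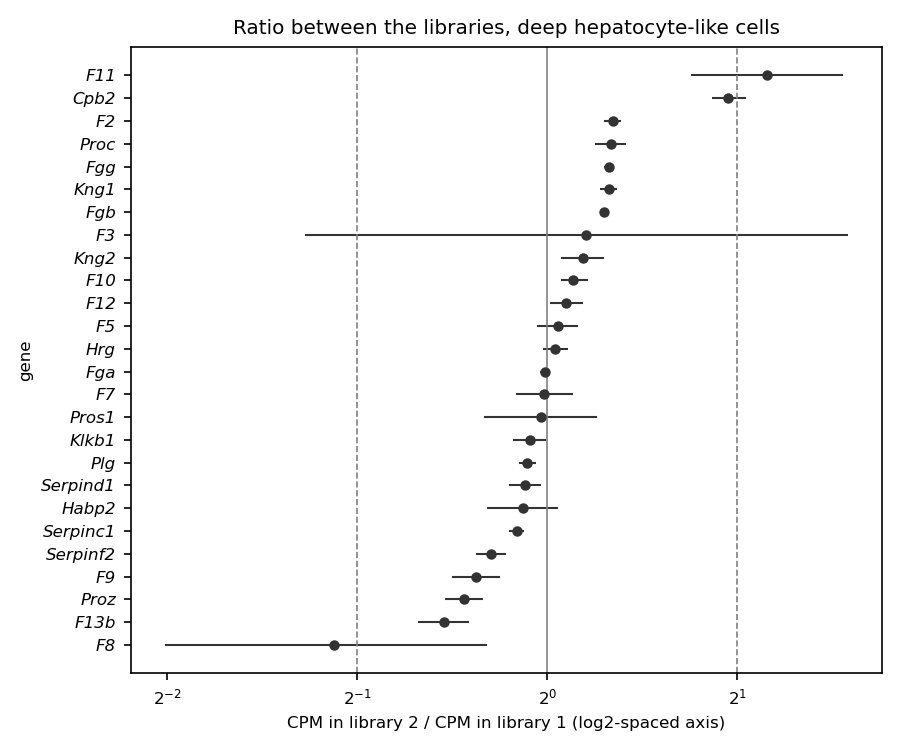
Ratio of the level in library 2 to that in library 1 (log2-spaced axis) in deep hepatocyte-like cells for the 26 members with enough UMIs, with exact conditional 95% intervals. The solid line marks 1 and the dashed lines 2-fold; F11 lies past the upper line, Cpb2 just short of it with an interval that crosses it, and F8 past the lower one.

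Hepatocytes differ along the axis from the portal vein to the central vein, and the deep hepatocyte-like cells were ranked by pericentral against periportal marker genes, and the 171 and 159 cells at each end, 1 of 3 equal parts, were compared. The ranking used these markers, so their values describe how far apart the ends are and test nothing. Cyp2e1 was at 80.0 CPM in the periportal-rich and 830 CPM in the pericentral-rich end of library 1, and at 108 and 775 CPM in library 2. The periportal marker Hal was at 209 and 195 CPM in library 1 and at 583 and 351 CPM in library 2. Cyp2f2, also periportal, was at 2096 and 1881 CPM in library 1 and at 1333 and 914 CPM in library 2. The pericentral marker Glul was at 23.6 and 65.5 CPM, and at 5.17 and 71.8 CPM. Hal and Cyp2f2 thus hardly separated the ends of library 1, where the end called periportal-rich stood out by low Cyp2e1 and Glul. Depth moved with the ends, with a median of 32214 UMIs in the periportal-rich and 17202 in the pericentral-rich end of library 1 and of 19636 and 7903 in library 2. The median mitochondrial share was 16.1% and 16.3% in library 1, and 16.8% and 9.49% in library 2. The part of depth and of mitochondrial share in these ratios was not tested beyond the alternatives given with them. In library 1, 289 of 515 cells, and in library 2, 244 of 479, lay within 0.5 score units of a cut, so that the ends are ranges and not types.

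None of the 24 members tested was past 1.5-fold in both libraries, neither towards the pericentral-rich end (0.945% of 6244 genes) nor towards the periportal-rich end (0.849%). The periportal count of 0 became 7 with hepatocyte-like cells from 2000 UMIs and 4 with no mitochondrial limit. The ratio was on the same side of 1 in both libraries for 17 members, against 55.4% of all genes tested. For 10 members the counting interval was below 1 in both (against 3.52% of genes), namely F2, F10, F12, Fgb, Fgg, Plg, Serpinc1, Kng1, Kng2 and Hrg, and for 0 members it was above 1 in both (against 4.95%). All 10 were among the 22 members of at least 50 CPM, a level at which 7.40% of 2123 genes had intervals below 1 in both and 11.9% above. Serpinc1 was at 1372 CPM in the periportal-rich and 981 CPM in the pericentral-rich end of library 1, a ratio of 0.715 (0.685 to 0.746), and at 1214 and 840 CPM in library 2, a ratio of 0.692 (0.651 to 0.736). Fgb had ratios of 0.760 (0.740 to 0.781) and 0.756 (0.731 to 0.781). Fga differed between the libraries, with 1.00 (0.975 to 1.04) and 0.772 (0.740 to 0.805). F11 was higher in the pericentral-rich end of library 1, at 2.16 (1.27 to 3.71) from 27 and 35 UMIs, and at 1.17 (0.737 to 1.84) in library 2.

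**Figure D5:**
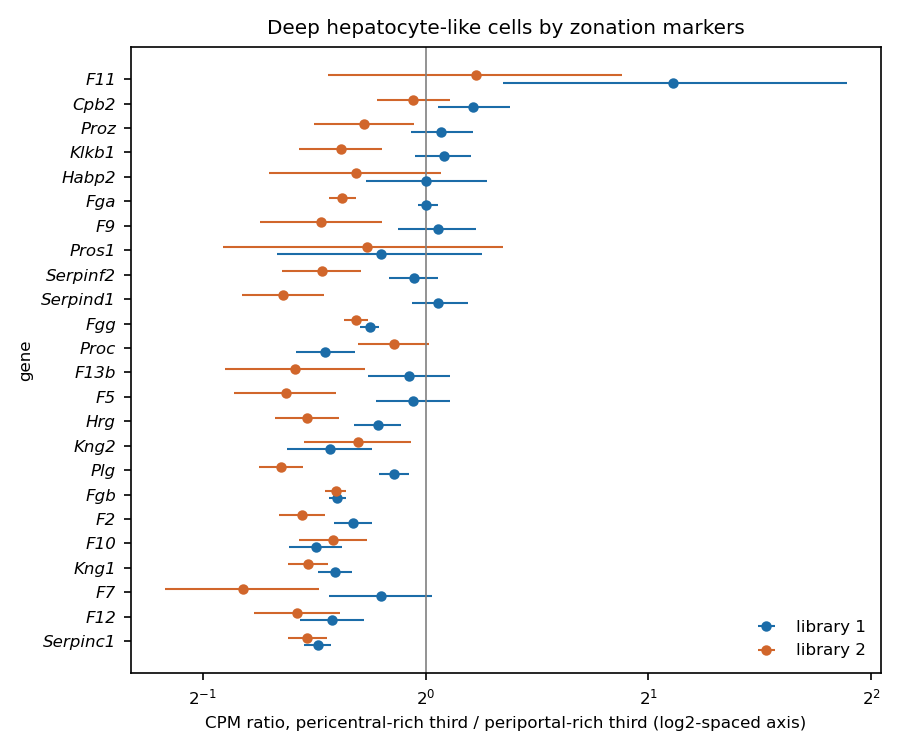
Ratio of CPM in the pericentral-rich end to the periportal-rich end of deep hepatocyte-like cells (log2-spaced axis) for the 24 members tested, in library 1 (blue) and library 2 (orange), with exact conditional 95% intervals. Most points lie to the left of 1, and more of them in library 2, where the pericentral-rich end had a median of 7903 UMIs per cell against 19636.

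Other genes of the pathway were read from 4 lists, and their counts past 2-fold stand against 3.57% of all genes with the higher level in library 2 and 4.76% with the higher level in library 1. Of 7 genes of the vitamin K cycle and of factor secretion, 6 were at 10 CPM or more in deep hepatocyte-like cells of both libraries and 0 passed 2-fold. Vkorc1, the reductase that warfarin inhibits, was at 177 and 211 CPM, and Lman1, which carries factors V and VIII out of the endoplasmic reticulum, at 236 and 204 CPM. Of 13 further protease inhibitors and regulators of fibrinolysis, 6 reached that level, and of the 7 tested 1 passed 2-fold. This was Serpine2, for a thrombin inhibitor on cells, at 63.1 CPM (58.8 to 67.6) in library 1 and 18.0 CPM (14.9 to 21.4) in library 2. Adamts13, for the protease that cleaves von Willebrand factor, was highest in stellate-like cells, at 182 and 297 CPM. Those were only 13 and 11 cells, in which 3 UMIs make 68.3 and 89.2 CPM, so these levels rest on few UMIs. Serpinb2 was highest in monocyte-like cells, at 60.2 and 58.9 CPM.

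Of 16 receptors and cofactors on cells, 5 reached 10 CPM in both libraries. Of the 10 tested, 2 were at least 2-fold higher in library 2. S100a10, a plasminogen receptor subunit, was at 121 and 365 CPM, and Anxa2, its partner, at only 1.24 and 2.90 CPM. S100a10 was higher still in T-like and B-like cells, at 610 and 744 CPM, and so was Anxa2, at 61.4 and 78.9 CPM. F2r, the thrombin receptor, was lower in library 2, at 23.4 and 9.84 CPM, and highest in endothelial-like cells, at 271 and 338 CPM. In T-like and B-like cells F2r was at 33.5 and 40.7 CPM, above its deep hepatocyte-like levels. Of 8 known hepatic regulators, 6 reached that level in both libraries, and 3 passed 2-fold, Cebpa with the higher level in library 2 and Foxa2 and Onecut1 with the higher level in library 1. Foxa2 was at 45.9 and 20.3 CPM and Onecut1 at 167 and 49.2 CPM, while Hnf4a was at 214 and 207 CPM.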

How the data were processed

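The authors deposited 1 matrix of whole-number UMI counts per gene and barcode (32285 genes, 32316 barcodes), not normalized, for both samples. The submitters' processing notes name Cell Ranger 7.1.0, bcl2fastq 2.20.0, STAR 2.7.2a and mm10. Neither the cell calling nor the counting of intronic reads is stated in these notes, so overlapping genes (8 members overlap another counted gene) may share reads. All 33 members were reported. The members and gene lists were chosen with earlier results of these data known.

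Cells had at least 500 UMIs, at least 200 genes and at most 25% mitochondrial UMIs. Classes were gated per cell on marker lists that hold no member. A class needed at least 3 markers of its list, a detected fraction of it at least 0.2 above that of the next list, and under 5% of UMIs from hepatocyte markers (Alb, Ttr and the like). Deep hepatocyte-like cells had at least 5000 UMIs and at least 5% from those markers, and 70 and 118 cells with at least 0.5 of another list, erythroid excepted, were left out. In library 1, 110, and in library 2, 90 deep cells lay between 4% and 6%. No doublet caller was run. Of the kept cells (11617 and 6088), 9452 and 4188 had no class. Classes under 10 cells in a library were not used, and a highest class needed at least 5 UMIs.

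The level of a class was the sum of UMIs over its cells. Intervals were exact Poisson for CPM, exact conditional binomial for ratios and Clopper-Pearson for shares (Python 3.11.15, numpy 2.4.6, scipy 1.17.1). Ratios needed 20 UMIs over both libraries, the ends of the zonation ranking 50, and values per Alb UMI 10. No genotype comparison was made because no label ties a barcode suffix to a sample. Scripts were tested on simulated counts. Alternatives were other mitochondrial and depth limits, clustering, means over cells, thinning, subtraction of the T-like and B-like level, and CPM without mitochondrial UMIs. One more, cells with any marker list left in, was chosen after seeing the data.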

Additional observations from a re-analysis of the deposited data

Results flagged for a closer look

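The droplets over the 25% mitochondrial limit, which the comparisons leave out, also held the members. In library 1, 5675 such droplets of at least 500 UMIs and 200 genes held 10838 CPM of the 33 genes together (10791 to 10886), and in library 2, 8886 droplets held 14077 CPM (14032 to 14123). A count of 0 would allow at most 0.162 and 0.114 CPM. With mitochondrial UMIs left out of the total, the level was 24695 CPM in library 1 and 32436 CPM in library 2, against 16608 and 17869 CPM in deep hepatocyte-like cells and 3707 and 4394 CPM in T-like and B-like cells. Fgb alone was at 2437 and 3404 CPM of all UMIs in these droplets.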

How the results depend on the processing

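The counts of members past 10 CPM and of members highest in hepatocyte-like or endothelial-like cells stayed within 1.5 times the reported count under each alternative run. Read against the counting interval of the reported value instead, 58 of 66 CPM values lay outside it with the T-like and B-like level subtracted and 46 without mitochondrial UMIs, and 17 of 26 ratios did so with classes from clustering, 15 with no mitochondrial limit and 12 of 25 with thinned cells. The count of members at least 1.5-fold higher in the periportal-rich end, reported as 0, was 7 with hepatocyte-like cells from 2000 UMIs and 4 with no mitochondrial limit, and the cause was not tested. The count higher by 2-fold in library 1, reported as 1, was 0 from 10000 UMIs, from 2000 UMIs, with classes from clustering and with cells of any marker list left in. The count higher in library 2, also 1 (F11), was 2 from 2000 UMIs, where Cpb2 was added at a ratio of 2.01, 2 with clustering, where F13a1 was added on 3 and 17 UMIs, and 3 with the T-like and B-like level subtracted, where Cpb2 (2.09) and F3 (2.58) were added. The ratio of F8 reversed to 1.18 with cells of any marker list left in, a setting that adds cells holding another class's markers. With the T-like and B-like level subtracted, the ratio of F8 was 0, since its library 2 level (2.32 CPM) lay below that background (2.88 CPM). Over 10 alternatives the ratio of F11 ran from 2.12 to 2.98 and that of Cpb2 from 1.83 to 2.09. The ratio of F3, 1.15 on 13 and 8 UMIs, ran from 0.553 with clustering to 2.58 over its 8 alternatives. Counting depth limits F3, F8, F13a1, Plat, Plau, Procr, Tfpi, Thbd and Vwf in deep hepatocyte-like cells. No paired analysis was possible because there is 1 sample per group and no label ties a library to a group.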
